A study of Homo sapiens with 6 samples.

Results

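Aminoacyl-tRNA synthetases attach each amino acid to its transfer RNA. The members described here were the 38 named genes of this machinery in the count table, out of 60675 gene rows. They were 20 genes for the cytosolic enzymes, 16 genes with names ending in ARS2 for the mitochondrial enzymes, and AIMP1 and AIMP2, which encode scaffold proteins. All 38 were matched by GENCODE release 29 symbol and all 38 passed the filter on low counts, which left 18267 genes tested.

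Total RNA depleted of ribosomal RNA was sequenced from HEK293 cells, a line established from human embryonic kidney, in 3 libraries labelled MOCS2 RNAi knockdown and 3 libraries labelled control with the genotype wild type. All 6 cultures were grown in high-glucose DMEM with serum and Geneticin. MOCS2 encodes the subunits of molybdopterin synthase. The sources used here do not give the RNAi agent, the number of clones or whether replicates came from separate cultures. P-values therefore rest on the spread among these 6 libraries, which may be technical.

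In the cytosol every standard amino acid is served by an enzyme or a pair of subunits, and EPRS joins the glutamyl and prolyl activities in 1 chain. Several of the cytosolic enzymes are held with AIMP1 and AIMP2 in the multisynthetase complex. Mitochondria translate their own genome with enzymes made from separate nuclear genes, except that GARS and KARS serve both compartments and that mitochondrial glutaminyl-tRNA is made by EARS2 and the amidotransferase GatCAB. Many cytosolic synthetase genes are known targets of ATF4, the transcription factor of the amino acid response, which binds a composite C/EBP and ATF element.

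That element was searched as TGATGCAA on both strands (its other strand reads TTGCATCA). It was present in a promoter window of 6 of the 16 cytosolic synthetase genes with a window. The counts were 0 of 14 mitochondrial and 0 of 2 AIMP genes. A window runs from 250 bases before to 50 bases after a RefSeq transcription start (GRCh38.p14), and 1.08% of all 27305 genes with a window held the element (0.866% of all 35116 windows). DARS, LARS, VARS, YARS, AARS2 and VARS2 had no window in the table. The 6 windows that held the element are shown because these genes are set against the other cytosolic genes below, with the element in capitals. CARS and TARS each had a further window without it, not shown.
AARS (chr16:70289457-70289756, minus strand): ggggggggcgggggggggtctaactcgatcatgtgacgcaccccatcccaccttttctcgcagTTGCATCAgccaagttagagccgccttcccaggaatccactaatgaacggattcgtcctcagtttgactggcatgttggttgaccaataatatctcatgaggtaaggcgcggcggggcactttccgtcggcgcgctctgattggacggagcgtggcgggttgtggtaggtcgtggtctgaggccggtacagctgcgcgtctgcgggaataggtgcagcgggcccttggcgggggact
CARS (chr11:3057374-3057673, minus strand): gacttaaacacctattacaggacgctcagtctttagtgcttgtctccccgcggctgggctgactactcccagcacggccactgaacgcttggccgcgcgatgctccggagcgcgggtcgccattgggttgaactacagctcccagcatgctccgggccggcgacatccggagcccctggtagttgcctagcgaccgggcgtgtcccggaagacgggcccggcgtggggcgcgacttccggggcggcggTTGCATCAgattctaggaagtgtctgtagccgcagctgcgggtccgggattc
IARS (chr9:92293648-92293947, minus strand): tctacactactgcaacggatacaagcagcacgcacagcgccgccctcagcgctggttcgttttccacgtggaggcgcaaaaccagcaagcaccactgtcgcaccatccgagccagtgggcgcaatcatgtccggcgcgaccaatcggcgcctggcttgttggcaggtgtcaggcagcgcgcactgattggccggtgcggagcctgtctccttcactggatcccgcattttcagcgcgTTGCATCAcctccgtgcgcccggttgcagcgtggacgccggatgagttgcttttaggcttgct
MARS (chr12:57487818-57488117, plus strand): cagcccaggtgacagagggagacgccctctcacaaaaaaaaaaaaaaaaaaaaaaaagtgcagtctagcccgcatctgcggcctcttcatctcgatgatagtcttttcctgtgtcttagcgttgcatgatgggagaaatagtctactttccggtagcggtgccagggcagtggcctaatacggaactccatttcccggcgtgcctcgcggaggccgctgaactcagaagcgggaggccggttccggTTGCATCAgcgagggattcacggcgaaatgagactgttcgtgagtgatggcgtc
NARS (chr18:57621787-57622086, minus strand): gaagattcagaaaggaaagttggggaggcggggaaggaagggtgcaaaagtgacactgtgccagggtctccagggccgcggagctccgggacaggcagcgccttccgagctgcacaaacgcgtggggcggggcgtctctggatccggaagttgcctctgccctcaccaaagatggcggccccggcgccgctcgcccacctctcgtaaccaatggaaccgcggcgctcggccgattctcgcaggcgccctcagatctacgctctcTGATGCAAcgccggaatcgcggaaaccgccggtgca
TARS (chr5:33440715-33441014, plus strand): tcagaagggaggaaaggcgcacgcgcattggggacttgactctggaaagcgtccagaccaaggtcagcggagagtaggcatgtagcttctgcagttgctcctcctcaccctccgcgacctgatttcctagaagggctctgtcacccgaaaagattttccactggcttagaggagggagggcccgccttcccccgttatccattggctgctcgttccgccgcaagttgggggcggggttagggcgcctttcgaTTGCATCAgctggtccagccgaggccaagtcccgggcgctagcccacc
The element began at -187 in AARS, and close to the annotated start in the others, at -2 in CARS, -13 in IARS, -4 in MARS, 15 in NARS and 3 in TARS, counted from the start as 1. A match is a description of the letters and not of binding. Only the exact letters TGATGCAA were searched on both strands, so a gene without a match may still hold a variant of the element. As a second motif, the E-box CACGTG was present in 1 cytosolic gene, IARS, in 3 mitochondrial genes, CARS2, EARS2 and MARS2, and in AIMP2, against 8.77% of all genes with a window and 7.26% of all windows.

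Reads assigned to genes ranged from 17958632 to 22171106 per library, and each member had between 145 and 16630 reads in each library. MOCS2 RNA did not follow the labels: 69.8, 58.9 and 59.9 CPM (read counts relative to the library's TMM-scaled total) in the libraries labelled knockdown 1, 2 and 3, against 57.8, 66.6 and 65.6 CPM in controls 1, 2 and 3 (log2 fold change -0.0096, 95% interval -0.33 to 0.31). Directions below are therefore those of the labels, since no loss of MOCS2 RNA was measured. The MOCS2 value is a count for the whole gene, and neither single transcripts nor protein were measured. In library 2 labelled knockdown 37.5% of the uniquely aligned reads fell in no annotated gene, and in the remaining 5 libraries 21.5% to 25.0%. Leaving out library 3 labelled knockdown took the count of genes past edgeR's adjusted threshold to 2815 of 19062, while all 6 libraries gave 0 of 18267. The 8 HEK293 markers, which include NEFL, NEFM, KRT8, KRT18 and VIM, summed to 1803 to 2532 CPM in the libraries labelled knockdown and 1291 to 1794 CPM in controls. VIM had 1527, 1288 and 1017 CPM of these in the libraries labelled knockdown, against 816, 677 and 922 CPM in controls, and had a log2 fold change of 0.67. The other markers went both ways, with INA at 0.94, NEFL at -0.36 and LHX1 at -0.77 on the log2 scale, and PAX2 had 0.905, 1.49 and 1.37 CPM in the libraries labelled knockdown, against 1.62, 1.48 and 1.21 CPM in controls. The summed level of 12 markers of blood, fibroblast, endothelial and liver cells was 12.2 to 22.3 CPM in the libraries labelled knockdown and 12.4 to 14.9 CPM in controls, highest in library 2 labelled knockdown. COL3A1 had 2.15, 9.94 and 2.37 CPM of these in the libraries labelled knockdown, against 3.91, 5.7 and 2.22 CPM in controls. CD3E and CDH5 among them had 0 to 4 reads in each library, and the part of these markers in the results was not tested.

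Neither compartment's synthetases lay to one side of the controls as a group. Between bulk libraries such as these, fewer cells of a kind and less RNA per cell cannot be told apart. The median log2 fold change was 0.012 over the cytosolic genes, with 10 of 20 above 0 and a range of -0.71 to 0.41, and -0.018 over the mitochondrial genes, with 8 of 16 above 0 and a range of -0.63 to 0.36. The median over all 18267 genes tested was 0.017. By edgeR's quasi-likelihood test with Benjamini-Hochberg adjustment over all genes, 0 of 38 members passed an adjusted p of 0.05, as did 0% of all genes. At an unadjusted p of 0.05, 2 members were higher (DARS and MARS2) and 3 lower (AARS, QARS and IARS2), together 13.2% of the members, beside 9.93% of all genes higher, 10.6% lower and 20.5% in either direction. DESeq2 called 1 of 38, AARS, as lower, beside 3.06% of all genes higher, 3.21% lower and 6.27% in either direction, and limma voom called 0. Without the filter edgeR called AARS, QARS and IARS2, all lower, beside 1.6% of genes higher, 2.03% lower and 3.64% in either direction. The fit with the replicate block called 0 members (background 0.0328% higher, 0.0712% lower and 0.104% in either direction), and leaving out control 3 also gave 0 (background 0.0212%, all lower). Without library 3 labelled knockdown, AARS, QARS and IARS2 passed edgeR's test and all 3 fell, 7.89% of the members, beside 6.46% of all genes higher, 8.3% lower and 14.8% in either direction.

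**Figure D1:**
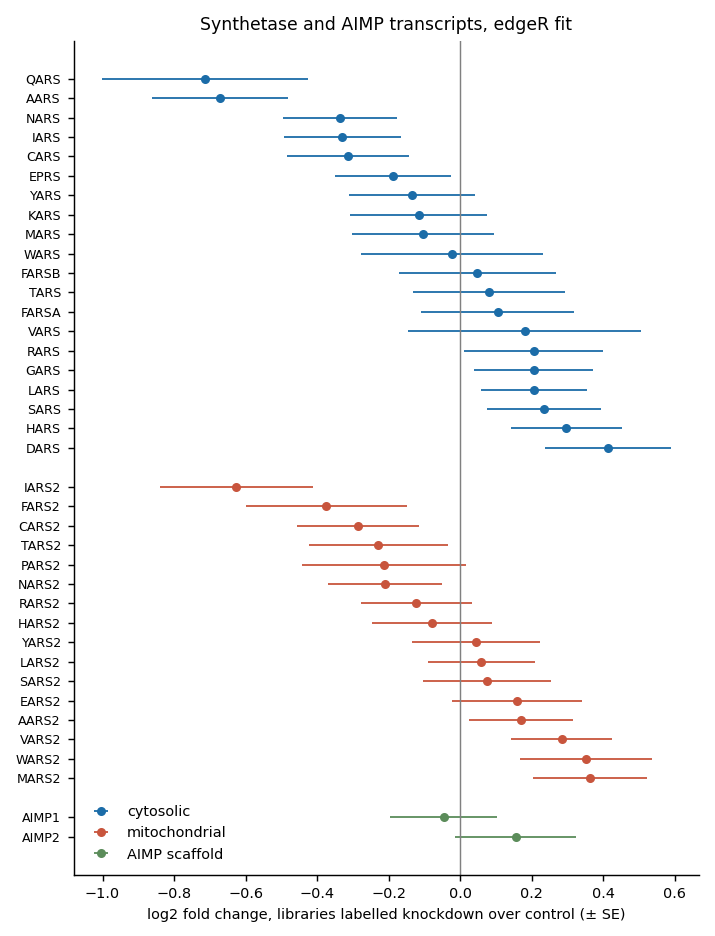
Log2 fold change (libraries labelled knockdown over control, edgeR) with its standard error for the 20 cytosolic synthetase genes, the 16 mitochondrial genes and both AIMP genes, 3 libraries a group. Each compartment spreads to both sides of 0, from -0.71 (QARS) to 0.41 (DARS) in the cytosolic set and from -0.63 (IARS2) to 0.36 (MARS2) in the mitochondrial set.

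Among the cytosolic enzymes, AARS and QARS had the lowest fold changes. AARS, the alanyl-tRNA synthetase (ENSG00000090861, chromosome 16, 70252295 to 70289543, minus strand, GRCh38), had 82.2, 129 and 132 CPM in the libraries labelled knockdown 1, 2 and 3, against 179, 173 and 193 CPM in controls 1, 2 and 3. All 3 libraries labelled knockdown lay below all 3 controls, and library 1 was lowest. The log2 fold change, given here and below as ± its standard error, was -0.67 ± 0.19 (edgeR adjusted p = 0.111, DESeq2 adjusted p = 0.029). Leaving out 1 library gave values from -0.79 to -0.49, and edgeR's adjusted p was 0.023 without library 3 labelled knockdown. With any other library left out, edgeR's adjusted p for AARS was 0.115 to 0.418.

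QARS, the glutaminyl-tRNA synthetase of the cytosol (ENSG00000172053, chromosome 3, 49095932 to 49105135, minus strand, GRCh38), had 72.5, 60.1 and 150.4 CPM in the libraries labelled knockdown, against 144, 157 and 162 CPM in controls. Libraries 1 and 2 were under every control while library 3 lay among them, so the groups overlapped. The log2 fold change was -0.71 ± 0.29 (edgeR adjusted p = 0.203), and it was -1.23 without library 3 (edgeR adjusted p = 0.00157) and -0.48 without library 2. With any library other than library 3 left out, edgeR's adjusted p for QARS was 0.316 to 0.491.

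NARS and IARS, the asparaginyl- and isoleucyl-tRNA synthetases, were lower by a smaller margin without overlap. NARS (ENSG00000134440, chromosome 18, 57600656 to 57622213, minus strand, GRCh38) had 335, 315 and 414 CPM in the libraries labelled knockdown, against 474, 429 and 441 CPM in controls (-0.34 ± 0.16, edgeR adjusted p = 0.261). IARS (ENSG00000196305, chromosome 9, 92210207 to 92293756, minus strand, GRCh38), a member of the multisynthetase complex, had 323, 331 and 430.4 CPM in the libraries labelled knockdown, against 442, 485 and 435 CPM in controls (-0.33 ± 0.16, edgeR adjusted p = 0.283). In both genes library 3 of the knockdown label was the closest to the controls, and in IARS it was just under the lowest of them.

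DARS, HARS and LARS were the cytosolic genes in which every library labelled knockdown lay above every control. DARS, the aspartyl-tRNA synthetase (ENSG00000115866, chromosome 2, 135906677 to 135986100, minus strand, GRCh38), had 216, 142 and 159.8 CPM in the libraries labelled knockdown, against 135, 121 and 133 CPM in controls (0.41 ± 0.18, edgeR adjusted p = 0.221). Its value was largest in library 1, and without that library the log2 fold change was 0.22. HARS, the histidyl-tRNA synthetase (ENSG00000170445, chromosome 5, 140673904 to 140691862, minus strand, GRCh38), had 231, 172 and 189 CPM in the libraries labelled knockdown, against 161, 155 and 166 CPM in controls (log2 fold change 0.30, edgeR adjusted p = 0.303, and 0.17 on the log2 scale without library 1). LARS, the leucyl-tRNA synthetase, averaged 479.9 ± 44.2 CPM in the libraries labelled knockdown and 416 ± 15.6 CPM in controls (SD, n = 3 each).

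Over all 38 members, the groups did not overlap in 5 higher genes (DARS, HARS, LARS, MARS2 and VARS2) and 4 lower genes (AARS, IARS, NARS and IARS2). Together these were 23.7% of the members, beside 26.8% of all genes, of which 12.5% were higher and 14.3% lower, so the share was near the background.

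**Figure D2:**
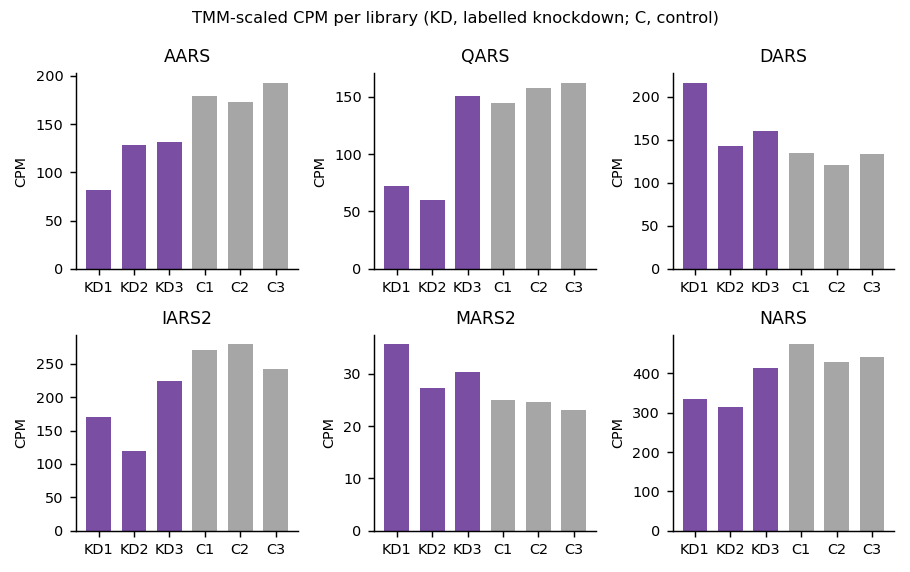
TMM-scaled CPM in each of the 6 libraries for 4 cytosolic and 2 mitochondrial synthetase genes, with libraries labelled knockdown (KD) left of controls (C). QARS in library KD3 is 150.4 CPM, within the controls, while KD1 and KD2 are at 72.5 and 60.1 CPM.

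The other cytosolic genes had fold changes between -0.31 and 0.23 on the log2 scale, and their groups overlapped. CARS, the cysteinyl-tRNA synthetase, had 42.3, 50.4 and 63.7 CPM in the libraries labelled knockdown, against 67.6, 59.6 and 67.1 CPM in controls. YARS, the tyrosyl-tRNA synthetase, had 136, 161 and 208 CPM in the libraries labelled knockdown, against 198, 171 and 186 CPM in controls. TARS, for threonine, had 665, 496 and 877 CPM in the libraries labelled knockdown, against 657, 561 and 711 CPM in controls. In CARS and YARS libraries 1 and 2 of the knockdown label were below every control, and in TARS library 3 was above and library 2 below every control. GARS and KARS, which serve both compartments, had log2 fold changes of 0.21 and -0.12. FARSA and FARSB, which encode the subunits of 1 phenylalanyl-tRNA synthetase, had 0.10 and 0.048. VARS, the valyl-tRNA synthetase, had the widest standard error of the 38, 0.33, with 134, 79.1 and 242 CPM in the libraries labelled knockdown, against 161, 112 and 128 CPM in controls. Library 3 of the knockdown label was above and library 2 below every control for this gene.

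The multisynthetase complex was uneven. Over its 8 synthetases and 2 scaffold genes the median was -0.075 on the log2 scale, with 4 genes above 0 and 6 below and 0 of 10 past edgeR's adjusted threshold, from QARS at -0.71 to DARS at 0.41. Without library 3 labelled knockdown the median was -0.17 and 1 of 10, QARS, fell in edgeR's test, beside 8.3% of all genes lower. RARS, MARS and EPRS, of the same complex, had log2 fold changes of 0.21, -0.10 and -0.19. AIMP1 (ENSG00000164022, chromosome 4, 106315544 to 106349226, plus strand, GRCh38) had 55.4, 43.1 and 54.1 CPM in the libraries labelled knockdown, against 53.6, 53.5 and 50.4 CPM in controls (log2 fold change -0.047, 95% interval -0.38 to 0.28). AIMP2 (ENSG00000106305, chromosome 7, 6009245 to 6023834, plus strand, GRCh38) had 88.8, 62.8 and 81.1 CPM in the libraries labelled knockdown, against 71.4, 61 and 76.8 CPM in controls (log2 fold change 0.15, 95% interval -0.22 to 0.53). Both scaffold genes overlapped between the groups, with library 2 of the knockdown label lowest among its group. EEF1E1, the remaining scaffold gene, had 76.6, 45.4 and 50.3 CPM in the libraries labelled knockdown, against 43.9, 39.9 and 46.1 CPM in controls. By structural class, the 18 class I enzymes had a median of 0.011 and the 17 class II enzymes a median of 0.048, over both compartments and without EPRS, which has a domain of each class. Without library 3 labelled knockdown these medians turned to -0.27 and -0.14.

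Among the mitochondrial enzymes, IARS2, the isoleucyl-tRNA synthetase, had the lowest fold change. IARS2 (ENSG00000067704, chromosome 1, 220094102 to 220148041, plus strand, GRCh38) had 169.8, 119 and 224 CPM in the libraries labelled knockdown, against 270.4, 279 and 243 CPM in controls, and every library of the first group was below every control. The log2 fold change was -0.63 ± 0.21 (edgeR adjusted p = 0.149), and -0.87 without library 3 labelled knockdown (edgeR adjusted p = 0.0133). With any other library left out, edgeR's adjusted p for IARS2 was 0.170 to 0.467. FARS2, for phenylalanine, had 9.39, 12.8 and 15.1 CPM in the libraries labelled knockdown, against 16.8, 13.1 and 18.5 CPM in controls. CARS2, for cysteine, had 36, 34.2 and 47.7 CPM in the libraries labelled knockdown, against 46.2, 53.2 and 44.4 CPM in controls. The groups overlapped in FARS2 and CARS2, whose log2 fold changes were -0.37 and -0.29 (edgeR adjusted p = 0.369 and 0.363). FARS2 was at -0.21 without library 1 labelled knockdown, and CARS2 at -0.46 without library 3.

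MARS2 and VARS2, for methionine and valine, lay above all controls in every library labelled knockdown. MARS2 (ENSG00000247626, chromosome 2, 197705369 to 197708387, plus strand, GRCh38) had 35.6, 27.3 and 30.4 CPM in the libraries labelled knockdown, against 24.9, 24.6 and 23.1 CPM in controls (0.36 ± 0.16, edgeR adjusted p = 0.233). VARS2 (ENSG00000137411, chromosome 6, 30908242 to 30926459, plus strand, GRCh38) had 81.7, 90.3 and 75.7 CPM in the libraries labelled knockdown, against 70.3, 71.1 and 62.1 CPM in controls (0.28 ± 0.14, edgeR adjusted p = 0.284). WARS2, for tryptophan, had 44.7, 35.9 and 30.7 CPM in the libraries labelled knockdown, against 30.2, 32.4 and 24.6 CPM in controls, and library 3 lay between the controls (log2 fold change 0.35, edgeR adjusted p = 0.305, and on the log2 scale 0.19 without library 1 and 0.23 without control 3). The remaining 10 mitochondrial genes had log2 fold changes between -0.23 (TARS2, for threonine) and 0.17 (AARS2, for alanine). Among these, RARS2, for arginine, had 97.7, 74.7 and 102 CPM in the libraries labelled knockdown, against 97.2, 101 and 101 CPM in controls, and library 2 alone was clearly under them. LARS2, for leucine, averaged 57.3 ± 7.67 CPM in the libraries labelled knockdown and 55 ± 2.33 CPM in controls (SD, n = 3 each).

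The 3 libraries labelled knockdown differed among themselves. Relative to the control mean, the cytosolic synthetases had medians of 0.017, -0.40 and 0.22 log2 CPM in libraries labelled knockdown 1, 2 and 3, and 0.054, -0.11 and 0.047 in controls 1, 2 and 3. The mitochondrial synthetases had medians of 0.054, -0.28 and 0.035 in the libraries labelled knockdown and 0.055, 0.0067 and -0.057 in controls. Library 2 labelled knockdown stood lowest in both compartments, with 30 of 38 members under their control mean, while library 1 had 17 and library 3 had 10. In library 2 the median of 14147 protein-coding genes tested was -0.069, with 7788 of them under their control mean. Of the lists described below, the mitochondrial translation factors had a median of -0.27 in library 2, with 8 of 11 under their control mean. The partner genes of tRNA charging had -0.023 there and the amino acid response genes 0.034. That library also had the 37.5% of reads outside annotated genes, and the part of this in the synthetase values was not tested. Without library 2, the medians of the log2 fold changes were 0.15 for the cytosolic and 0.089 for the mitochondrial genes, and without library 3 they were -0.28 and -0.081. The cytosolic median was thus 0.03 above the mitochondrial one with all 6 libraries and 0.20 below it without library 3 labelled knockdown.

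**Figure D3:**
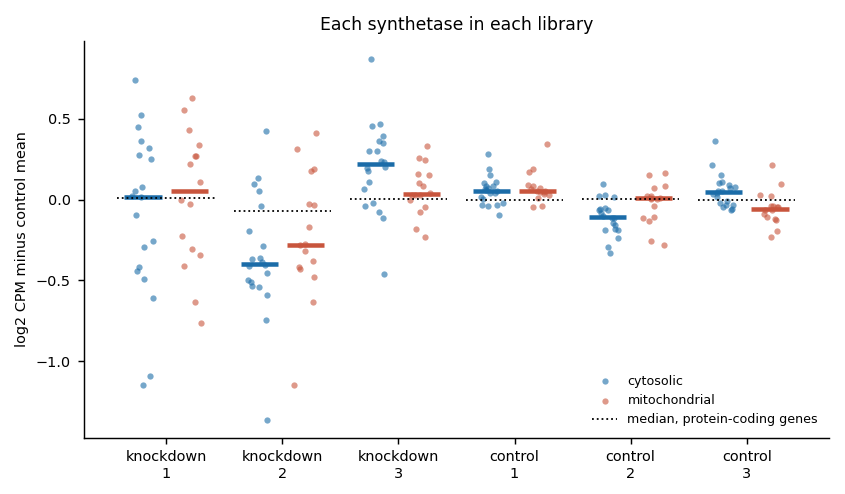
Log2 CPM minus the control mean of the same gene, for each cytosolic and mitochondrial synthetase gene in each library, with bars at the medians and a dotted line at the median of protein-coding genes. In library 2 labelled knockdown both bars lie under the dotted line (-0.40 and -0.28 against -0.069), and in library 3 the cytosolic bar is at 0.22.

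The 6 cytosolic genes with the TGATGCAA element had a median log2 fold change of -0.32, with 5 of 6 below 0 (AARS, CARS, IARS, MARS and NARS) and TARS at 0.08. The 10 cytosolic genes whose windows lacked these exact letters had a median of 0.076, with 4 of 10 below 0 and QARS the lowest. Without library 3 labelled knockdown the medians were -0.47 with the element and -0.039 without it, so the second turned sign. Per library, the 6 genes had medians of -0.45, -0.43 and -0.049 in libraries labelled knockdown 1, 2 and 3, and 0.051, -0.092 and 0.022 in controls 1, 2 and 3. The 10 other genes had 0.16, -0.40 and 0.22 in the libraries labelled knockdown and 0.034, -0.12 and 0.076 in controls. The medians lay apart in libraries 1 and 3 of the knockdown label and close together in library 2. The motif and this split were chosen after the fold changes had been seen, the difference was not tested, and 4 cytosolic genes had no window.

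**Figure D4:**
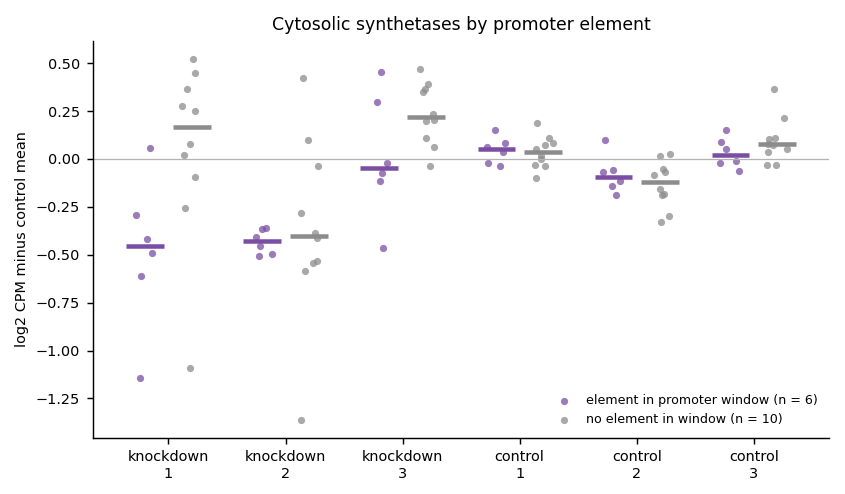
Log2 CPM minus the control mean for the cytosolic synthetase genes by library, with bars at the medians. Genes are split into those with (6) and without (10) the exact letters TGATGCAA, on either strand, in a promoter window. The medians are -0.45 and 0.16 in library 1 labelled knockdown and -0.43 and -0.40 in library 2.

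Transcripts of the cytosolic enzymes were the more abundant ones per exon length. In CPM per kilobase of exon, the cytosolic genes ranged from 5.19 (CARS) to 119 (TARS) with a median of 45.8 in the libraries labelled knockdown, and from 6.45 (CARS) to 112 (TARS) with a median of 45.8 in controls. The mitochondrial genes ranged from 2.57 (FARS2) to 41.1 (IARS2) with a median of 10.04 in the libraries labelled knockdown, and from 3.34 (FARS2) to 63.4 (IARS2) with a median of 8.04 in controls. NARS, at 86.7 in the libraries labelled knockdown and 109.5 in controls, was next to TARS, and RARS2, at 36 in the libraries labelled knockdown and 39.2 in controls, next to IARS2. The length is the union of all annotated exons, which can understate a gene whose annotated exons are not all used.

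Enzymes for the same amino acid can be compared within a library. Of 17 pairs of members, in which EPRS and FARS2 each appear more than once, the cytosolic transcript was the more abundant per exon length in all 6 libraries in 14. The other pairs were IARS with IARS2, AARS with AARS2 and YARS with YARS2, in which the order varied between libraries. The fold changes of the partners had the same sign in 7 pairs, 3 positive and 4 negative, and opposite signs in 10.

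For isoleucine both partners were below controls, and the log2 ratio of IARS to IARS2 per exon length was 0.10, 0.65 and 0.11 in libraries labelled knockdown 1, 2 and 3, against -0.12, -0.03 and 0.012 in control 1, 2 and 3. For alanine the log2 ratio of AARS to AARS2 was -0.38, 0.56 and 0.31 in libraries labelled knockdown 1, 2 and 3, against 0.93, 1.00 and 1.16 in control 1, 2 and 3, lower in all 3 libraries labelled knockdown. AARS2 itself had 102, 83.1 and 101 CPM in the libraries labelled knockdown, against 89.9, 82.6 and 82.5 CPM in controls. For threonine the log2 ratio of TARS to TARS2 was 3.05, 2.95 and 2.99 in libraries labelled knockdown 1, 2 and 3, against 2.63, 2.61 and 2.81 in control 1, 2 and 3, higher in all 3 libraries labelled knockdown. The isoleucine, alanine and threonine pairs were picked after their values had been seen, and such a separation was not particular to them. Under the knockdown label the ratios of HARS to HARS2, LARS to LARS2 and RARS to RARS2 also lay above all controls. The ratio of NARS to NARS2 lay below all controls, and in the remaining pairs the groups overlapped. With 3 libraries against 3, an exact permutation test of 1 such ratio cannot give a two-sided p below 0.10, and none was run.

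**Figure D5:**
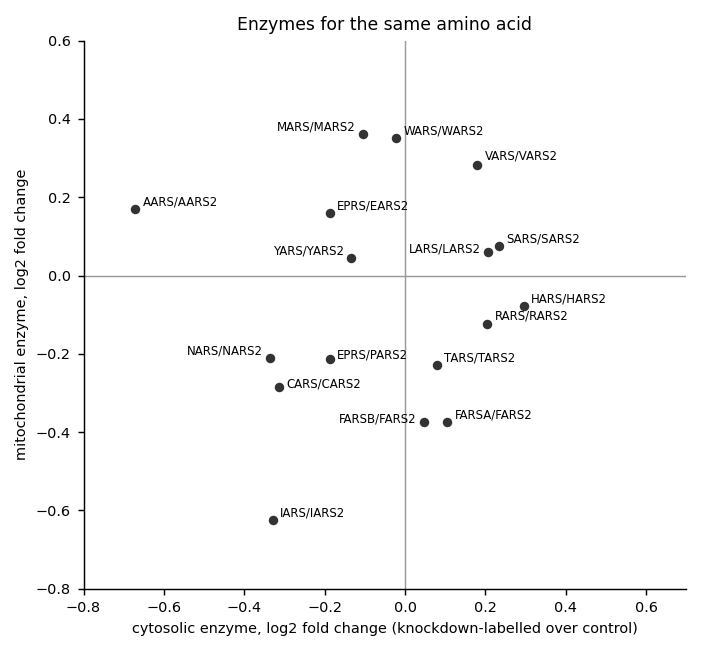
Log2 fold change (libraries labelled knockdown over control) of the cytosolic enzyme on the horizontal axis and of the mitochondrial enzyme for the same amino acid on the vertical axis, 1 point a pair. IARS/IARS2 lies lowest on the lower left, at -0.33 and -0.63, and AARS/AARS2 farthest left, at -0.67 and 0.17.

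HARS and HARS2, the histidine pair, start head to head on chromosome 5 and share exon bases there on opposite strands (HARS2, ENSG00000112855, chromosome 5, 140691426 to 140699318, plus strand, GRCh38). HARS had a log2 fold change of 0.30, and HARS2 had 50.3, 34.7 and 47.6 CPM in the libraries labelled knockdown, against 47.5, 47.3 and 45.2 CPM in controls (log2 fold change -0.079). In all, 20 of the 38 members share exon bases with another annotated gene, DARS, HARS, MARS and VARS2 among those named. The library kit keeps strand, but the setting used in counting is not stated, so their values are uncertain. In VARS2, and in part in HARS2 and SARS2, the other gene lies on the same strand, where a strand setting would not separate the reads. Outside the members, EEF1E1, GATC, GATB, PTRH2, PTRHD1, GFM2, MTIF3 and MTHFD2 also share exon bases with other genes. For EEF1E1, with EEF1E1-BLOC1S5, and in part for GATC, the other gene is on the same strand. For 12 members, AARS, NARS and IARS2 among them, GENCODE lists a pseudogene of the same name, and reads that fit both cannot be told apart here. The 10 cytosolic genes with no shared exon base had a median log2 fold change of -0.070 and the 8 such mitochondrial genes one of -0.17, and without library 3 labelled knockdown these were -0.34 and -0.28.

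Of 16 partner genes of tRNA charging, 0 passed edgeR's test over all genes with all 6 libraries, and the median log2 fold change was 0.19, beside 0.017 over all genes. Without library 3 labelled knockdown, 2 of the 16 rose (GATC and PTRH2) and 1 fell (DTD1), beside 6.46% of all genes higher and 8.3% lower, and the median was 0.12. GATC, a subunit of the GatCAB amidotransferase, had 192, 162 and 128 CPM in the libraries labelled knockdown, against 106, 98.5 and 109 CPM in controls (log2 fold change 0.62, edgeR adjusted p = 0.108, DESeq2 adjusted p = 0.0261). It shares exon bases with SRSF9 and a further gene. The other subunit genes of that enzyme, QRSL1 and GATB, had log2 fold changes of 0.19 and -0.21, and EARS2, which charges the same mitochondrial tRNA with glutamate, had 0.16 (0.0038 without library 1 labelled knockdown and 0.30 without library 3). DTD1, a D-aminoacyl-tRNA deacylase, had 20.9, 20.7 and 29.7 CPM in the libraries labelled knockdown, against 33.4, 37.8 and 37.8 CPM in controls (log2 fold change -0.61, edgeR adjusted p = 0.12). PTRH2, a peptidyl-tRNA hydrolase, had 75.6, 108 and 62.7 CPM in the libraries labelled knockdown, against 58.3, 54.7 and 63 CPM in controls. PTRHD1, of the same hydrolase group by name, had 22.2, 13.1 and 26.5 CPM in the libraries labelled knockdown, against 25.7, 29.5 and 34.9 CPM in controls. The groups overlapped in PTRH2 and PTRHD1, in both through library 3 labelled knockdown.

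Of 11 mitochondrial translation factors, 0 passed with all 6 libraries and 2, TUFM and GFM2, fell without library 3 labelled knockdown, beside 8.3% of all genes lower. The median log2 fold change over the list was -0.10 with all 6 libraries and -0.18 without library 3. TUFM, the elongation factor that brings charged tRNA to the mitochondrial ribosome, had 193, 216 and 294 CPM in the libraries labelled knockdown, against 334, 284 and 344 CPM in controls. GFM2, a ribosome recycling factor, had 78.1, 77.8 and 125 CPM in the libraries labelled knockdown, against 119, 132 and 137 CPM in controls. In both genes library 3 was the nearest to the controls and overlapped them. MTIF3, an initiation factor, had 21.3, 20.9 and 28 CPM in the libraries labelled knockdown, against 26.2, 28.8 and 27.5 CPM in controls. MTRF1, of the release factor family, had 18.4, 16.4 and 18.4 CPM in the libraries labelled knockdown, against 19.8, 19 and 20.2 CPM in controls. Every library labelled knockdown was below every control in MTRF1 (-0.15 ± 0.16, edgeR adjusted p = 0.623) but not in MTIF3.

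Of 15 genes of the amino acid response, 10 had fold changes above 0, as had 9463 of all 18267 genes. Their medians relative to the control mean were -0.19, 0.034 and 0.32 log2 CPM in libraries labelled knockdown 1, 2 and 3, with 8, 7 and 0 of the 15 genes under that mean. None, 0 of 15, passed with all 6 libraries, and the median log2 fold change was 0.077. Without library 3 labelled knockdown the median turned to -0.084, and 1 of 15, CEBPG, rose, beside 6.46% of all genes. ATF4 had 521, 475 and 449.5 CPM in the libraries labelled knockdown, against 453, 305 and 381 CPM in controls, and the groups overlapped between library 3 and control 1 (log2 fold change 0.34, edgeR adjusted p = 0.295, and 0.20 on the log2 scale without control 2). CEBPG, a dimer partner of ATF4, had 479.7, 607 and 356 CPM in the libraries labelled knockdown, against 371, 291 and 299.8 CPM in controls (log2 fold change 0.59, edgeR adjusted p = 0.158). MTHFD2, a mitochondrial one-carbon enzyme, had 391, 231 and 297 CPM in the libraries labelled knockdown, against 261, 211 and 209 CPM in controls. In CEBPG and MTHFD2 1 library labelled knockdown lay among the controls. SLC3A2, a chain of amino acid transporters, had 186, 299 and 155 CPM in the libraries labelled knockdown, against 171, 108 and 182 CPM in controls, with library 2 far above the others. ASNS, the asparagine synthetase and a defining ATF4 target, had 109, 90.8 and 154 CPM in the libraries labelled knockdown, against 139, 113 and 121 CPM in controls (log2 fold change -0.074). ASNS was named beyond the rule, after its values had been seen.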

How the data were processed

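The deposited table holds raw counts of reads for each Ensembl gene and library. The submitters' processing notes name hg38, bcl2fastq 2.18, TopHat2 2.0.13 and HTSeq, and the kit marks strand, per the labels' protocols. The sources used here give no annotation release, strand setting or read filter. The 5 special rows stayed out of library sizes and tests, and reads outside genes were 21.5% to 37.5% of uniquely aligned reads. Symbols, positions and exon lengths came from GENCODE release 29 (GRCh38), which matched 57055 of 60675 identifiers, and promoters from RefSeq (GRCh38.p14), which matched 32 of 38 members.

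The main test of the counts was that of edgeR 4.0.16, run in R 4.3.3 (TMM, filterByExpr, quasi-likelihood F test, two-sided, Benjamini-Hochberg over 18267 genes). Standard errors are the log2 fold change over the root of F. A prior count of 2 went into log2 CPM. Alternatives were edgeR with DESeq2's size factors, DESeq2 1.42.0, limma 3.58.1 voom, no filter, 1 CPM in 3 libraries, the replicate block and leaving out each library. The test was checked on simulated counts with 200 changed genes. No replicate pair agreed within sampling noise (chi-square over its degrees of freedom was 10.03 to 63.7).

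Values in every library are given for the 6 cytosolic, the 6 mitochondrial and both AIMP members with the smallest p, for the 2 most and 2 least abundant per kilobase of each class, and for 4 genes with the smallest p of each pathway list. Other genes were named for their role after their values had been seen. The members and lists were chosen with earlier results of these data known. Among the genes outside the members, 1 partner gene and 1 cell type marker are not reported here.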

Additional observations from a re-analysis of the deposited data

Results flagged for a closer look

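Reads outside annotated genes made up 37.5% of the uniquely aligned reads of library 2 labelled knockdown, above the 23.6% to 25.0% of the controls, and were noticed in rows of the table that no comparison uses. Libraries 1 and 3 of the same label had 22.3% and 21.5%. The part of these reads in the lower synthetase values of library 2 was not tested.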

How the results depend on the processing

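Over all genes, DESeq2 called 1145 genes and 1 member, and edgeR without a filter called 1574 genes and 3 members (AARS, QARS and IARS2). The fit with the replicate block called 19 genes and 0 members. These fits used all 6 libraries, as did the main edgeR fit, which called 0 genes and 0 members. Replicate numbers are not shown to pair the libraries: deviations of same-numbered libraries correlated at 0.114, -0.167 and -0.125. Size factors of DESeq2 in edgeR, voom and the stricter filter gave 0 genes and 0 members. Leaving out 1 library gave 0 to 2815 genes and 0 to 3 members called. The cytosolic median then ran from -0.28 to 0.15, the mitochondrial median from -0.14 to 0.089 and their difference from -0.20 to 0.17, the lowest of the first and last without library 3 labelled knockdown. Set aside by an alternative added after the data had been seen, members that share exon bases left a mitochondrial median of -0.17. FARSB turned negative by voom (-0.0068) and with the replicate block (-0.0045). Signs turned when 1 library was left out for genes near 0, with ranges of -0.12 to 0.051 for AIMP1, -0.038 to 0.30 for FARSA, -0.14 to 0.28 for FARSB, -0.19 to 0.061 for HARS2, -0.24 to 0.052 for KARS, -0.031 to 0.15 for LARS2, -0.36 to 0.022 for MARS, -0.094 to 0.027 for MOCS2, -0.021 to 0.12 for SARS2, -0.15 to 0.26 for TARS, -0.34 to 0.48 for VARS, -0.33 to 0.18 for WARS and -0.13 to 0.18 for YARS2. Other genes kept their sign but moved by over 1.5 times, in addition to those described above. Ranges were 0.044 to 0.28 for AIMP2, -0.49 to -0.19 for CARS, -0.34 to -0.095 for EPRS and 0.10 to 0.31 for GARS. They were 0.063 to 0.39 for RARS, 0.13 to 0.31 for SARS and -0.32 to -0.0046 for YARS. Mitochondrial genes had -0.31 to -0.14 for NARS2, -0.34 to -0.022 for PARS2, -0.22 to -0.0032 for RARS2 and -0.47 to -0.069 for TARS2. Outside the members they were 0.37 to 0.75 for CEBPG, 0.21 to 0.59 for MTHFD2 and 0.23 to 0.64 for PTRH2. SLC3A2 had 0.14 to 0.65, GFM2 -0.73 to -0.35, MTIF3 -0.39 to -0.16 and PTRHD1 -0.77 to -0.31. The causes were not tested. Each member had 145 reads or more in every library, and the part of counting error in the spread of single members was not tested.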

Other observations

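The libraries labelled knockdown varied more among themselves than the controls did in 20 of 20 cytosolic and 15 of 16 mitochondrial synthetase genes. The median SD of log2 CPM over 3 libraries was 0.33 for the cytosolic genes in the libraries labelled knockdown and 0.096 in controls, and 0.25 and 0.11 for the mitochondrial genes. Over all 18267 genes tested these SDs were 0.31 and 0.16, and 76.6% of genes were wider in the libraries labelled knockdown. The genes tested include some with fewer reads than any member, PAX2 among them. The shares were not compared at matched read counts. Summed over the 20 cytosolic genes, the level was 4743, 3974 and 5635 CPM in libraries labelled knockdown 1, 2 and 3, against 5055, 4577 and 5019 CPM in controls 1, 2 and 3, and both the lowest and the highest sum belonged to the knockdown label.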
